A study of Homo sapiens with 15 samples.

Results

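For each gene of the lung cancer line NCI-H1975, the effect of EGF was set against the effect of lowering its receptor EGFR. The quantity was a difference of 2 effects, (EGF minus control) minus (siEGFR minus siNC), on the scale log2(FPKM + 1). FPKM is the number of sequenced fragments scaled to the length of the transcript and to the size of the library. A gene was taken if it had 1 FPKM or more in at least 3 of the 12 libraries and a mean of at least 5 FPKM in control or EGF and again in siNC or siEGFR. These limits left 6615 expressed genes of 14559 genes that were tested and 61248 loci in all, and 12 of the 15 libraries of the study. The gene nearest to the limit on the inside had a deciding mean of 5.0011 FPKM and the one nearest on the outside 4.99996 FPKM. Outside lay 812 tested genes that were too low only in the siRNA libraries and 720 that were too low only in the control and EGF libraries.

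NCI-H1975 is an established line of human non-small cell lung cancer, and all groups are this line. Each group has 3 libraries: control, named only as control; EGF, treated with the growth factor; siNC, given a negative-control siRNA; and siEGFR, given an siRNA against EGFR. A further group, treated with the EGFR inhibitor almonertinib, is not part of the difference. No dose, duration or culture condition is given in the labels, which also do not say whether the 3 libraries of a group are separate cultures, so p-values measure the spread between these libraries and that spread may be technical. The 2 arms of the difference share no library. They start from different controls, siNC with a siRNA and control with none named, so any difference in handling between the arms cannot be told apart from the starting level. A single siRNA group stands for loss of EGFR.

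EGF binds the extracellular part of EGFR, which then pairs, phosphorylates itself and switches on the RAS-ERK and PI3K-AKT cascades. ERK induces transcription factors, secreted ligands such as amphiregulin and its own inhibitors, among them the phosphatase DUSP6. AKT restrains FOXO transcription factors and, through mTORC1, drives glycolysis, sterol synthesis and ribosome production. A gene whose level follows receptor signalling in both directions has a positive difference if the ligand raises it and the knockdown lowers it, and a negative one if the reverse holds.

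Read totals recovered from the deposited values ran from 18009882 to 34908207 per library, so that 1 read in a transcript of 1 kb was worth 0.0286 to 0.0555 FPKM. The median SD within a group on the log2 scale was 0.138 in control, 0.102 in EGF, 0.0496 in siNC and 0.0385 in siEGFR. The epithelial keratin KRT18 was at 155 ± 10.4 FPKM in control, and EPCAM and CDH1 were expressed. NKX2-1 and NAPSA, markers of lung adenocarcinoma, stayed below the limits of expression. Of 9 leukocyte markers 6 and of 9 fibroblast markers 6 were below 1 FPKM in all 12 libraries, as were 5 of 7 endothelial markers. Levels below are FPKM of libraries 1, 2 and 3 or the mean ± SD with n = 3, and effects are log2 differences ± SE of the limma fit, whose p-values were adjusted by Benjamini-Hochberg over the 14559 genes. A gene is said to have risen, fallen or passed where this adjusted p was under 0.05.

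EGFR (ENSG00000146648) itself was at 28.01, 22.3 and 22.8 FPKM in control, 30.2, 22.1 and 23.9 with EGF, 49.4, 49.4 and 49.8 in siNC and 29.9, 28.6 and 28.9 in siEGFR. The siEGFR libraries lay below all siNC libraries, while EGF and control overlapped. The knockdown left 58.8% of the transcript (-0.75 ± 0.11, adjusted p = 0.00209), and the EGF effect was 0.05 ± 0.11 (adjusted p = 0.699). The difference of both effects was 0.80 ± 0.15 (adjusted p = 0.00164). Control cells held 24.4 ± 3.17 FPKM and siNC cells 49.6 ± 0.218 FPKM, so the knocked-down level remained above the control mean. ERBB2, the other receptor of the family that met the limits, fell with EGF from 11.1 ± 1.36 to 7.17 ± 0.4305 FPKM and was at 10.2 ± 0.275 in siNC and 10.3 ± 0.235 in siEGFR, a difference of -0.57 ± 0.11.

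Of the expressed genes 46.6% passed for the difference. Among them 1827 had a higher difference, 27.6% of the expressed genes, and 1255 had a lower one, 19%. Of all 14559 genes tested, 18.9% were higher and 22.4% lower. A gene can meet the limits through its higher group alone. Of the 5851 genes with a mean of at least 5 FPKM in all 4 groups, 26% were higher and 18.8% lower. Of the 764 others, 39.8% were higher and 20.2% lower. The difference was at least 2-fold and passed in 280 genes upward (4.23%) and in 119 downward (1.8%).

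The EGF arm supplied most of the spread. EGF changed 58.2% of the expressed genes: it raised 2326 (35.2%) and lowered 1524 (23%), of which 258 (3.9%) and 103 (1.56%) changed at least 2-fold. siEGFR changed 7.83%: it raised 225 (3.4%) and lowered 293 (4.43%), of which 0 (0%) and 7 (0.106%) changed at least 2-fold. Over all 14559 genes tested, EGF raised 23.9% and lowered 27.8%, and siEGFR raised 3.03% and lowered 3.91%. The median size of the effect was 0.27 for EGF and 0.09 for siEGFR, and the EGF effect was the larger in 79.3% of genes. Across the 6615 genes the effects had a Pearson correlation of -0.05 and a Spearman correlation of -0.01. This is a description across genes, which are not independent replicates.

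Genes called in both arms fell into 4 classes. EGF raised and siEGFR lowered 141 genes, which is 6.06% of those raised by EGF and 48.1% of those lowered by siEGFR. EGF lowered and siEGFR raised 99 genes, 6.5% and 44% of the respective calls. In the same direction, 76 genes rose in both arms (33.8% of those raised by siEGFR) and 86 fell in both (29.4% of those lowered by siEGFR). Of all expressed genes EGF raised 35.2%, the share to set beside the 48.1% and 33.8%. It lowered 23%, the share to set beside the 44% and 29.4%. Genes opposed in both arms were 3.63% of the expressed genes and genes moving together 2.45%. All 240 opposed genes also passed for the difference, which follows from their opposite signs, since the difference then adds both sizes. Of the 76 that rose together 40 had a higher and 4 a lower difference. Of the 86 that fell together 7 had a higher and 33 a lower one. Of 2109 genes raised by EGF only, 1523 had a higher difference, and of 1339 lowered by EGF only, 1013 had a lower one.

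The siRNA counts depended on how the spread was estimated: by default 1 spread was shared with the control and EGF groups, whose SD was larger. With 1 variance weight per group 988 genes rose and 901 fell with siEGFR, and the opposed classes held 325 and 283 genes, the joint ones 318 and 217. In a fit of the 6 siRNA libraries alone 994 rose and 916 fell. Without control replicate 1, 422 rose and 481 fell, while leaving out any one siRNA library gave 80 to 105 increases and 160 to 202 decreases. The counts for the difference moved far less, to 1893 higher and 1287 lower with 1 weight per group. Counting only whether libraries overlapped, all 3 siEGFR libraries lay above all siNC libraries in 26.7% of expressed genes and below in 21.9%; for EGF against control these shares were 32.6% and 21.5%.

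**Figure D1:**
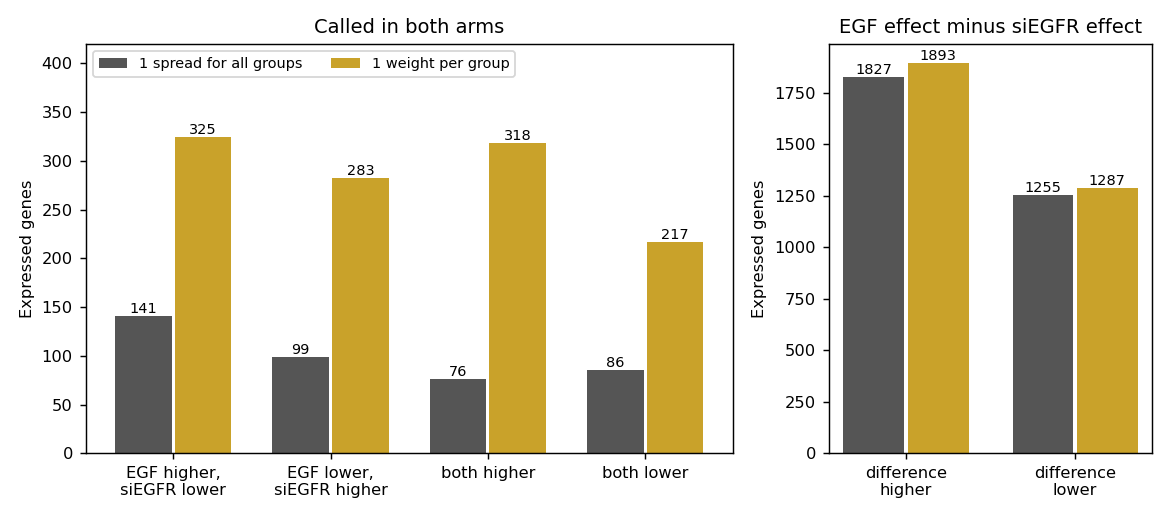
Number of expressed genes (vertical axis) called in both arms, by direction (left panel), and called for the difference (right panel), with 1 spread for all groups (grey) and with 1 variance weight per group (yellow). The 141, 99, 76 and 86 genes called in both arms become 325, 283, 318 and 217, and the 1827 and 1255 differences become 1893 and 1287.

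**Figure D2:**
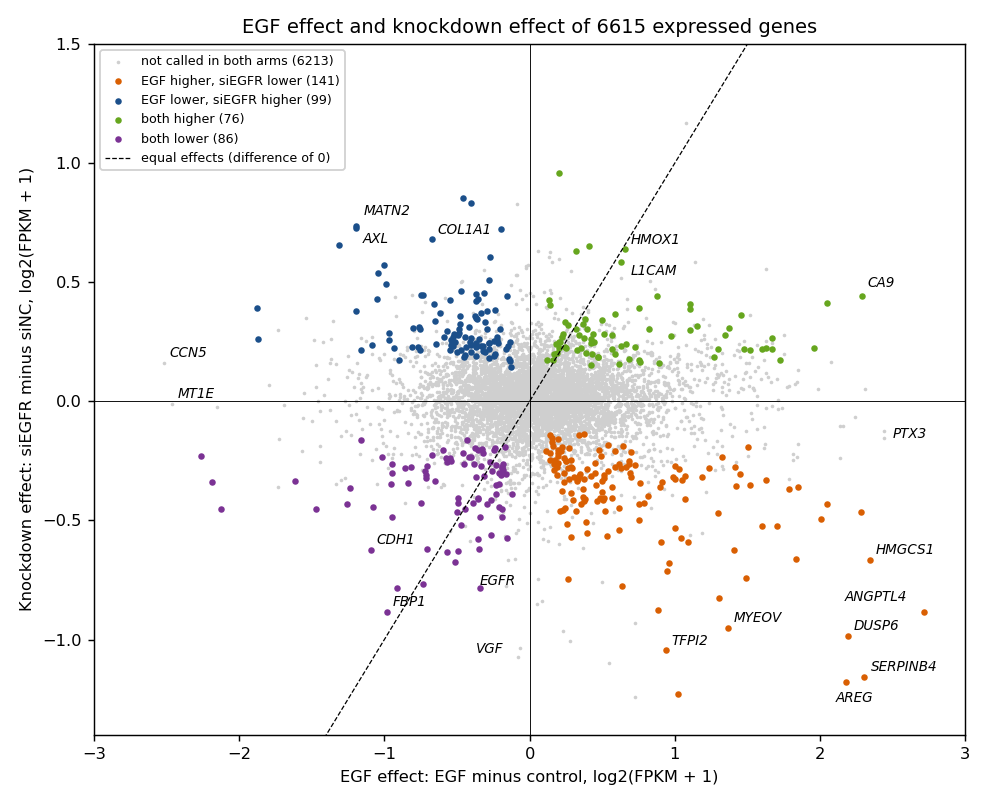
Each point is 1 of the 6615 expressed genes, with the EGF effect on the horizontal and the siEGFR effect on the vertical axis, both on log2(FPKM + 1). Colours mark genes called in both arms, the dashed line marks equal effects, and the horizontal spread is the wider, with a median size of 0.27 against 0.09.

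With pseudogenes left out, the 4 largest positive differences belonged to genes that EGF raised and siEGFR lowered, each with no overlap of libraries in either arm. Control means were 4.32 FPKM for AREG, 2.16 for DUSP6, 2.99 for ANGPTL4 and 1.36 for SERPINB4. All 4 thus met the limit of 5 in the EGF arm through EGF alone, so a rise there is in part built into the limits. In the siRNA arm DUSP6 and SERPINB4 met it through siNC alone, with siEGFR means of 4.07 and 4.005. Other genes below with a group under 5 FPKM in an arm met the limit there through the other group alone. AREG (ENSG00000109321) encodes amphiregulin, a secreted ligand of EGFR, and was at 4.47, 3.72 and 4.77 FPKM in control, 23.2, 22 and 24.05 with EGF, 13.5, 13.1 and 13.3 in siNC and 5.81, 5.405 and 4.78 in siEGFR. Levels were thus high with EGF and in siNC and low in control and siEGFR. EGF raised AREG by 2.18 ± 0.08 and siEGFR lowered it by 1.18 ± 0.08, a difference of 3.36 ± 0.11 (adjusted p = 2.39e-08). DUSP6 (ENSG00000139318), the phosphatase that inactivates ERK, was at 2.25, 2.09 and 2.14 FPKM in control, 13.96, 12.9 and 13.5 with EGF, 8.51, 8.99 and 9.61 in siNC and 3.98, 4.05 and 4.18 in siEGFR. It had the same order of groups, with effects of 2.19 ± 0.05 and -0.98 ± 0.05 and a difference of 3.18 ± 0.07 (adjusted p = 4.3e-09).

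ANGPTL4 (ENSG00000167772), a secreted inhibitor of lipoprotein lipase, was at 2.62, 3.38 and 2.96 FPKM in control, 23.8, 27.01 and 24.6 with EGF, 15.1, 15.3 and 13.5 in siNC and 7.79, 7.14 and 7.49 in siEGFR. Its difference of 3.60 ± 0.11 (adjusted p = 1.37e-08) was the largest of all named genes, from effects of 2.72 ± 0.08 and -0.88 ± 0.08. SERPINB4 (ENSG00000206073), a squamous protease inhibitor, was at 1.202, 1.57 and 1.296 FPKM in control, 10.6, 9.99 and 11.3 with EGF, 9.79, 9.802 and 10.7 in siNC and 4.13, 4.48 and 3.401 in siEGFR. The effects were 2.30 ± 0.09 and -1.16 ± 0.09 and the difference 3.46 ± 0.13 (adjusted p = 2.84e-08). Reads of SERPINB4 may in part stem from SERPINB3, a near-identical neighbour. The added pseudocount of 1 shrinks changes of genes near 1 FPKM: by group means EGF raised SERPINB4 7.83-fold, ANGPTL4 8.42-fold, DUSP6 6.24-fold and AREG 5.34-fold.

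**Figure D3:**
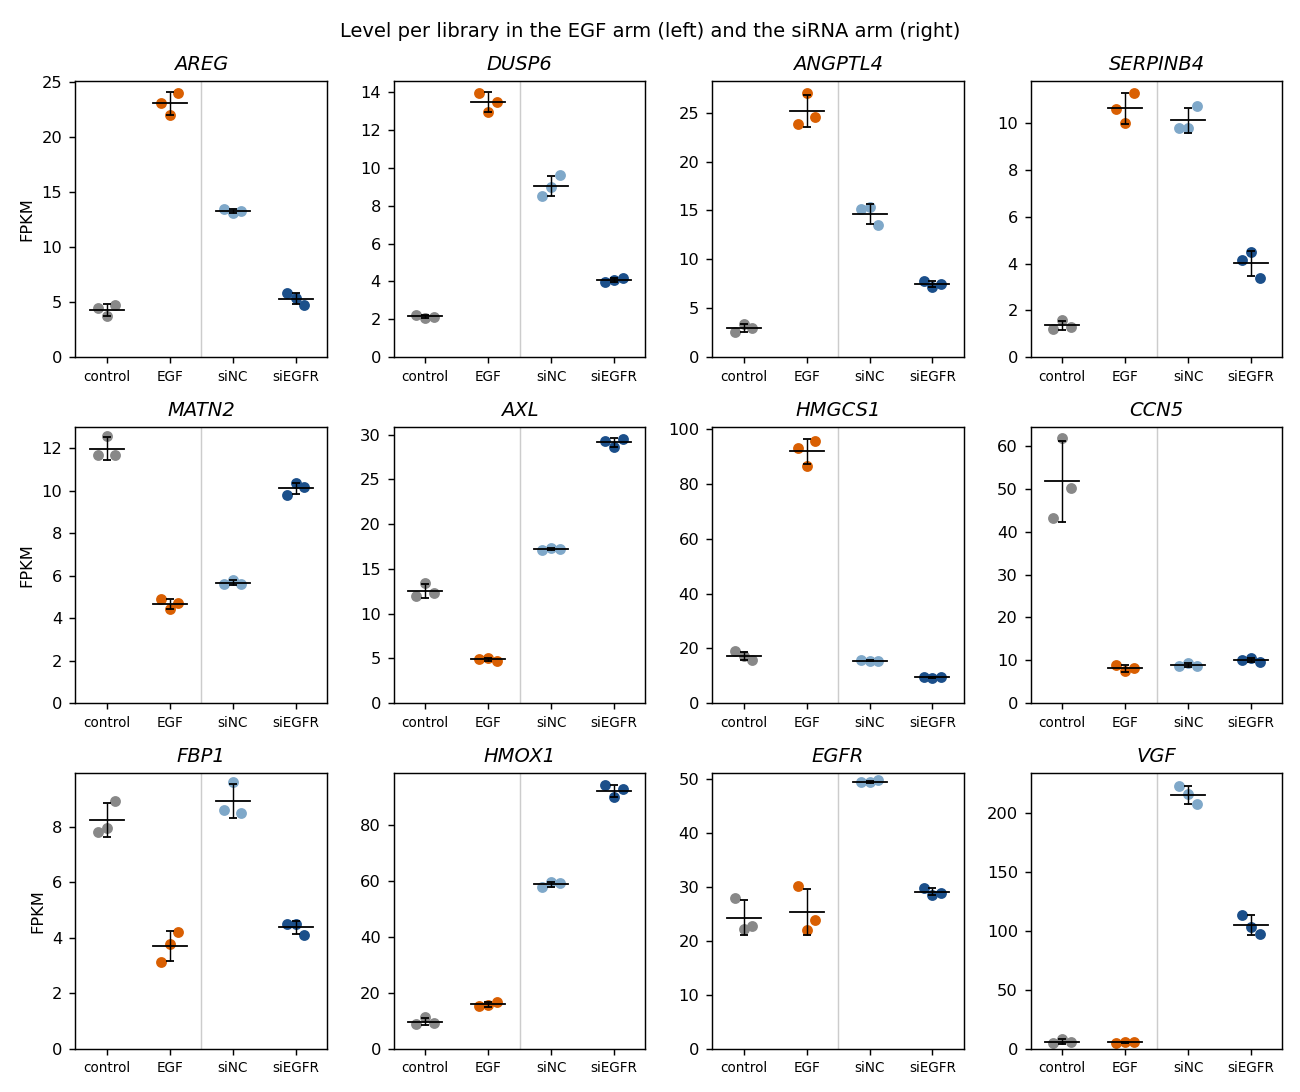
FPKM in each library of 12 genes, with control and EGF to the left of the grey line and siNC and siEGFR to the right. Points are libraries, bars the mean ± SD of 3. AREG, DUSP6, ANGPTL4 and SERPINB4 rise with EGF and fall with siEGFR, MATN2 and AXL do the reverse, FBP1 falls and HMOX1 rises in both, and EGFR and VGF passed in the siRNA arm and not with EGF.

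AREG encodes a ligand and DUSP6 an inhibitor of the pathway, and for this role the 250 bases before their annotated starts are shown. They come from RefSeq on GRCh38.p14 and run 5′ to 3′ on the strand of the gene. AREG is at chr4:74444886-74445135 on the plus strand and DUSP6 at chr12:89352502-89352751 on the minus strand. Capitals mark matches on either strand to the cyclic AMP response element TGACGTCA or to the CCAAT box, which reads ATTGG on the other strand.
AREG: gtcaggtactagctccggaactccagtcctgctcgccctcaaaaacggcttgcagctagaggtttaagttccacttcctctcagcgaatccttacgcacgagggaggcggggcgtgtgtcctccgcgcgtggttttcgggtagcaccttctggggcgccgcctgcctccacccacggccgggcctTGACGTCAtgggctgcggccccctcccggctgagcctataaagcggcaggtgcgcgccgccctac
DUSP6: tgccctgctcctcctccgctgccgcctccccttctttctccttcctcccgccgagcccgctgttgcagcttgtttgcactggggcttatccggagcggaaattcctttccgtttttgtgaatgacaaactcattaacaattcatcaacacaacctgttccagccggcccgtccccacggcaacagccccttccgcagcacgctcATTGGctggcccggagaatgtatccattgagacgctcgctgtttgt
The match in AREG starts at position -65 from the annotated start, and the one in DUSP6 at -46. Of 35116 promoters of this length 1.65% hold the response element, 6.57% the AP-1 motif TGANTCA, searched for but not found in these 2, and 32.0% a CCAAT box. These matches are letters in a window and do not show binding.

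The other EGFR ligands that met the limits were HBEGF and EREG, of 9 on the list and 6 tested. EREG, which encodes epiregulin, rose with EGF from 3.31 ± 0.635 to 7.07 ± 1.16 FPKM and fell from 10.2 ± 0.619 in siNC to 6.404 ± 0.151 in siEGFR, a difference of 1.49 ± 0.16 (adjusted p = 3.87e-05). HBEGF, the heparin-binding ligand, rose with EGF from 2.51 ± 0.0465 to 5.67 ± 0.162 FPKM. It was at 6.19 ± 0.2798 in siNC and 6.61 ± 0.159 in siEGFR and did not pass there (0.08 ± 0.05), with all siEGFR libraries above siNC. In siNC the 3 ligands were all above the control level, and EREG and HBEGF also above the EGF level.

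Lists and their members were chosen with earlier results of these data known, so list counts describe them and are not a test. Those here and below are to be set beside the shares over all expressed genes. For the difference 27.6% were higher and 19% lower, EGF raised 35.2% and lowered 23%, and siEGFR raised 3.4% and lowered 4.43%. All siEGFR libraries lay above all siNC libraries in 26.7% of expressed genes and below in 21.9%. How often siNC means lay above control or EGF means over all expressed genes was not counted, so such counts describe a list only. Of 10 expressed ERK feedback inhibitors, 7 had a higher and 2 a lower difference, with a median of 0.86 against 0.07 for all expressed genes. EGF raised 7 and lowered 2, and siEGFR lowered 4 and raised 0. All 3 siEGFR libraries lay below all siNC libraries in 9 of the 10. The 4 that moved in opposite directions were DUSP6, SPRY2, DUSP4 and DUSP5. SPRY2, a Sprouty inhibitor of receptor signalling, rose from 8.29 ± 0.631 to 13.9 ± 0.644 FPKM with EGF and fell from 8.495 ± 0.438 to 6.92 ± 0.355 FPKM with siEGFR (difference 0.95 ± 0.09). DUSP4, a nuclear ERK phosphatase, went from 9.68 ± 0.669 to 14.1 ± 0.522 and from 9.09 ± 0.385 to 6.58 ± 0.457 FPKM (difference 0.92 ± 0.09). LRIG1, which promotes turnover of the receptor, and LRIG3 were the members with a lower difference (-0.50 and -0.19), and both fell with EGF.

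Of 17 expressed transcripts that ERK induces, 15 had a higher difference and 0 a lower one, with a median of 1.23. EGF raised 15, siEGFR lowered 6 and raised 2. PHLDA2, an imprinted growth regulator, rose from 41.4 ± 2.79 to 174 ± 13.8 FPKM with EGF and fell from 78.2 ± 1.37 to 57.7 ± 2.64 with siEGFR (difference 2.48 ± 0.10, adjusted p = 3.42e-08). CCND1, which encodes cyclin D1, went from 18.5 ± 1.71 to 66 ± 3.66 and from 75.4 ± 0.7997 to 58.1 ± 0.388 FPKM (difference 2.15 ± 0.09). In the knockdown CCND1 thus stayed well above the control level. ETV4, an ETS transcription factor, showed the same directions at lower levels (difference 1.32 ± 0.06).

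FOSL1, an AP-1 subunit, rose in both arms and was at 6.54 ± 0.961 FPKM in control, 30.1 ± 2.13 with EGF, 59.6 ± 2.205 in siNC and 79.7 ± 2.398 in siEGFR. Its EGF effect exceeded its siEGFR effect by 1.64 ± 0.12 (adjusted p = 3.03e-06). Of 10 expressed immediate early genes 8 had a higher difference and CCN1 a lower one. EGF raised 9 of them, while siEGFR lowered JUNB and raised CCN1. JUN, an AP-1 subunit, rose from 10.4 ± 0.0729 to 24.9 ± 1.29 FPKM with EGF and was at 29.9 ± 0.296 and 32.8 ± 1.06 FPKM in siNC and siEGFR (difference 1.06 ± 0.06). JUNB fell from 66.3 ± 0.976 to 52.96 ± 2.35 FPKM (difference 1.02 ± 0.07), and KLF10 had a difference of 0.71 ± 0.07.

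**Figure D4:**
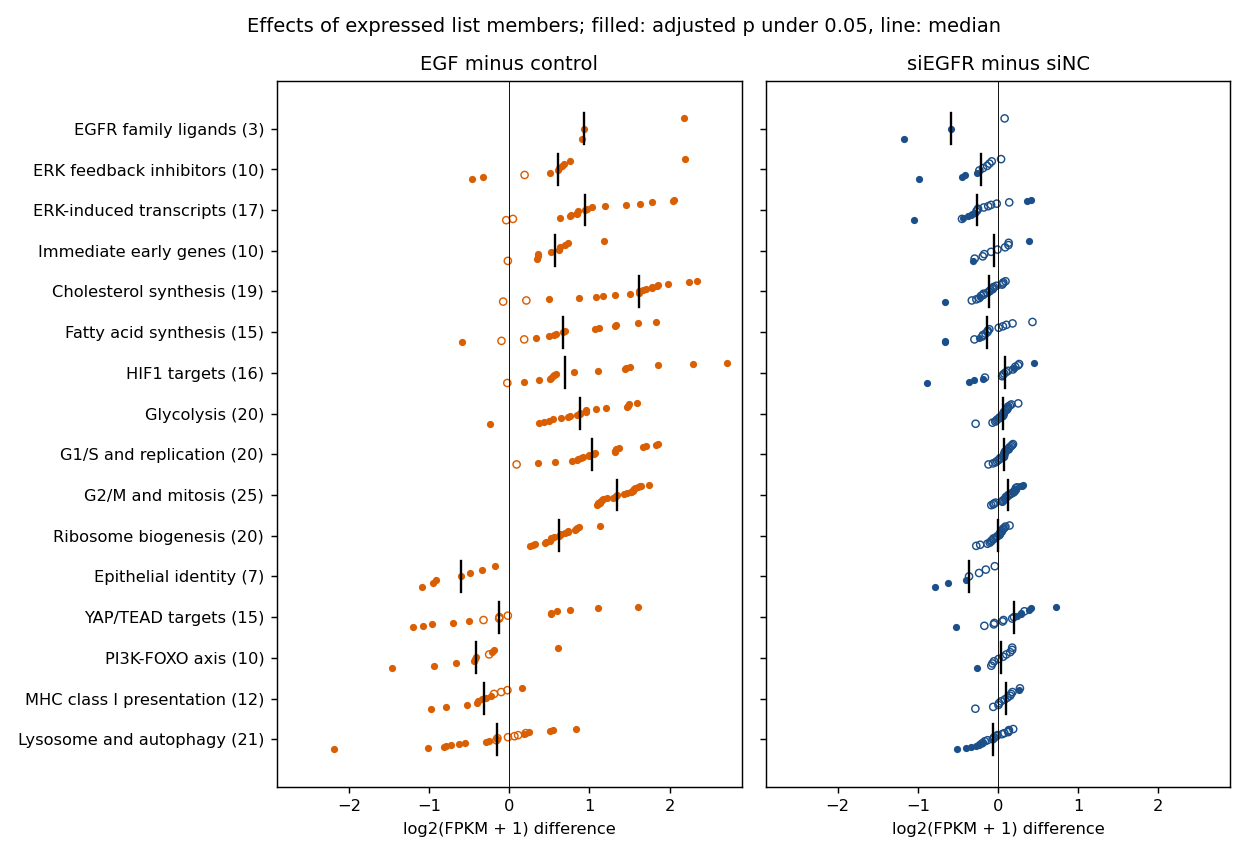
Effects of the expressed members of 16 gene lists, EGF minus control on the left and siEGFR minus siNC on the right, on log2(FPKM + 1). Each point is a gene, filled where the adjusted p was under 0.05, and the black line is the median. Cell cycle, glycolysis and ribosome biogenesis genes lie mostly to the right with EGF. With siEGFR the medians are 0.13 for G2/M, 0.08 for G1/S, 0.07 for glycolysis and 0.004 for ribosome biogenesis. The median of all expressed genes is 0.01. In the knockdown 4 of the 25 G2/M genes and 0 of the 20 glycolysis genes passed.

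Among sterol and fatty acid synthesis genes, 17 of 19 and 12 of 15 had a higher difference. HMGCS1 (ENSG00000112972), which makes the precursor of mevalonate, was at 18.9, 17.1 and 15.9 FPKM in control, 93.4, 86.8 and 95.7 with EGF, 15.6, 15.3 and 15.3 in siNC and 9.43, 9.12 and 9.51 in siEGFR. EGF libraries stood far above all others, and siEGFR was the lowest group. The effects were 2.35 ± 0.06 and -0.66 ± 0.06 and the difference 3.01 ± 0.09 (adjusted p = 8.76e-09). The 19 expressed cholesterol genes had 0 lower differences and a median of 1.69. EGF raised 17, and siEGFR lowered HMGCS1 and SREBF2 and raised 0, but in 11 of the 19 all siEGFR libraries lay below all siNC libraries. INSIG1, a sterol sensor partner, rose from 23.6 ± 1.31 to 87.9 ± 5.79 FPKM with EGF and was at 11.5 ± 0.302 in siNC and 10.02 ± 0.472 in siEGFR (difference 2.03 ± 0.08). FDPS, the farnesyl diphosphate synthase, had a difference of 1.72 ± 0.08. In 0 of the 19 genes was the siNC mean above the EGF mean.

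Of 15 fatty acid genes 12 had a higher difference and FADS3 a lower one. EGF raised 12 and lowered 1, and siEGFR lowered 3, which were SCD, FADS1 and SREBF1. SCD, the stearoyl-CoA desaturase, rose from 103 ± 3.79 to 369 ± 14.9 FPKM with EGF and fell from 92.1 ± 1.68 to 57.9 ± 1.24 FPKM with siEGFR, a difference of 2.49 ± 0.07 (adjusted p = 6.94e-09). FADS1, another desaturase, had a difference of 1.56 ± 0.07, and ACLY, which supplies cytosolic acetyl-CoA, one of 1.06 ± 0.07 with 0.01 in the knockdown. SREBF1, the transcription factor of lipid synthesis, did not pass with EGF (-0.10 ± 0.08) and fell with siEGFR from 18.5 ± 0.702 to 11.3 ± 0.555 FPKM.

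HIF1 targets and glycolysis genes mostly rose with EGF. In the knockdown 10 of 16 HIF1 targets and 20 of 20 glycolysis genes did not pass, where 7.83% of all expressed genes passed. Of 16 HIF1 targets, 12 had a higher difference and 0 a lower one (median 0.51), with 15 raised by EGF, 4 lowered by siEGFR and 2 raised. ANGPTL4, NDRG1, BHLHE40 and VEGFA were the 4 that fell with siEGFR. NDRG1, a stress-induced growth regulator, went from 20.8 ± 1.45 to 77.4 ± 6.23 and from 25.5 ± 0.176 to 19.6 ± 0.156 FPKM (difference 2.21 ± 0.09). BHLHE40, a transcriptional repressor, had a difference of 1.70 ± 0.07. CA9, a cell surface carbonic anhydrase, rose in both arms, from 4.27 ± 0.614 to 24.7 ± 1.16 FPKM with EGF and from 4.15 ± 0.0711 to 6.01 ± 0.199 FPKM with siEGFR. Its difference was 1.85 ± 0.11 (adjusted p = 5.5e-07).

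Of 20 glycolysis genes, 17 had a higher difference and PFKM a lower one, with a median of 0.88. EGF raised 19 and lowered PFKM, and 0 of the 20 passed for siEGFR. All siEGFR libraries lay above all siNC libraries in 8 of the 20 and below in 1, beside 26.7% and 21.9% of all expressed genes. PGK1, which makes ATP in glycolysis, rose from 103 ± 4.14 to 312 ± 9.26 FPKM with EGF and was at 232 ± 1.21 in siNC and 248 ± 5.19 in siEGFR (difference 1.5, adjusted p = 6.07e-08). LDHA, lactate dehydrogenase A, had a difference of 1.36 ± 0.07, and PFKFB4, a regulator of phosphofructokinase, one of 1.37 ± 0.09. In 18 of the 20 genes the siNC mean was above the control mean, and in 7 it was above the EGF mean. These shares were not counted over all expressed genes, so they cannot be called particular to glycolysis.

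All expressed cell cycle genes but UNG rose with EGF, none fell with siEGFR, and their siNC means were above their EGF means. All 25 expressed G2/M genes had a higher difference (median 1.21), all 25 rose with EGF, and siEGFR raised 4 and lowered 0. In 15 of the 25 all siEGFR libraries lay above all siNC libraries, and in 0 below. KIF23, a kinesin of cytokinesis, was at 3.13, 2.96 and 2.96 FPKM in control, 10.4, 9.32 and 10.7 with EGF, 17.9, 16.9 and 18.8 in siNC and 18.7, 20.1 and 18.7 in siEGFR. The groups stood in the order control, EGF, siNC and siEGFR by their means, and siNC and siEGFR overlapped. The effects were 1.47 ± 0.06 and 0.10 ± 0.06 and the difference 1.37 ± 0.08 (adjusted p = 7.02e-07). UBE2C, the ubiquitin-conjugating enzyme of the anaphase-promoting complex, had a difference of 1.42 ± 0.07 and the mitotic kinase AURKA one of 1.66 ± 0.09. The siNC mean was above the EGF mean in all 25. The members that rose with siEGFR were CCNB1, KIF2C, KIF20A and CDC20.

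Of 30 tested genes of G1/S and replication, 20 met the limits of expression. Of these, 19 had a higher difference and 0 a lower one (median 0.94). EGF raised 19 and siEGFR changed 0, with all siEGFR libraries above all siNC libraries in 12 and below in 0. CDC6, which loads the replicative helicase, was at 1.33, 1.36 and 1.47 FPKM in control, 6.91, 6.04 and 6.77 with EGF, 11.6, 11.5 and 12.9 in siNC and 12.6, 12.5 and 13.1 in siEGFR. EGF libraries stood above control and below siNC, and siNC and siEGFR overlapped. Its difference was 1.58 ± 0.09, that of RRM2, a subunit of ribonucleotide reductase, 1.75 ± 0.07, and that of the helicase subunit MCM4 0.98 ± 0.06. With control means of 1.39 and 1.86 FPKM, CDC6 and RRM2 met the limit of 5 in that arm through EGF alone. MCM4 was at 10.9 FPKM in control. The siNC mean was above the EGF mean in 20 of 20. In bulk RNA, fewer cells in a phase and less RNA per cell cannot be told apart.

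Promoters of CDC6 and KIF23 stand for the replication and the mitotic genes, which moved together, and are shown as above, with the CCAAT box in capitals. CDC6 is at chr17:40287629-40287878 and KIF23 at chr15:69414099-69414348, both on the plus strand of GRCh38.p14.
CDC6: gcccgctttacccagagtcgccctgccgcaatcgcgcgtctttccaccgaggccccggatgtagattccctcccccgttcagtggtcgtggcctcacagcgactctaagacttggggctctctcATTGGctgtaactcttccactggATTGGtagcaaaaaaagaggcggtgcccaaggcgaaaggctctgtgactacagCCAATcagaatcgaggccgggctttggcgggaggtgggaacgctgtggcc
KIF23: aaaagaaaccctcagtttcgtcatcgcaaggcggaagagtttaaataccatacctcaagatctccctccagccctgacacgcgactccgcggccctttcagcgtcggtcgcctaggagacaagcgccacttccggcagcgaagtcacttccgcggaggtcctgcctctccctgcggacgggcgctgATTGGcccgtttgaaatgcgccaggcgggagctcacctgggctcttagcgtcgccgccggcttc
CDC6 holds 3 matches, which start at -126, -103 and -50, and KIF23 holds 1 at -64. Of the G2/M genes 20 of 25 had an entry in the promoter table, and 18 of these 20 promoters (90%) hold the box, beside 10 of 17 (58.8%) for G1/S and replication. In ER chaperones 14 of 15 (93.3%) hold it. The share is 6 of 7 (85.7%) for immediate early genes, 11 of 14 (78.6%) for cholesterol synthesis and 6 of 9 (66.7%) for MHC class I presentation. It is 8 of 12 (66.7%) for contractile genes, 4 of 6 (66.7%) for the BCL2 family and 6 of 10 (60%) for interferon-stimulated genes. For HIF1 targets it is 7 of 13 (53.8%), for the amino acid response 8 of 15 (53.3%) and for fatty acid genes 7 of 14 (50%). Lower shares are 2 of 5 (40%) for p53 targets, 4 of 20 (20%) for glycolysis, 1 of 8 (12.5%) for NF-kB targets and 0 of 8 for ERK-induced transcripts. The share is 32.0% for all promoters. Of the expressed genes 78.6% had an entry, too few for a full comparison, and 36.5% of those promoters hold the box and 3.42% the AP-1 motif. The AP-1 motif was found in 0 of the 20 G2/M promoters, 0 of the 17 G1/S promoters and 1 of the 20 glycolysis promoters. It was found in 3 of 8 (37.5%) for ERK-induced transcripts, of which only 47.1% had an entry. The share was 2 of 5 (40%) for keratins and squamous serpins and 2 of 14 (14.3%) for fatty acid genes. These small counts were not tested.

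Ribosome biogenesis genes also rose with EGF and did not pass in the knockdown. Of 20 expressed genes, 18 had a higher difference and 0 a lower one (median 0.60), 20 rose with EGF, and 0 passed for siEGFR. All siEGFR libraries lay above all siNC libraries in 3 of the 20 and below in 6, beside 26.7% and 21.9% of all expressed genes. DKC1, the pseudouridine synthase of small nucleolar particles, went from 22.5 ± 0.208 to 38.2 ± 1.46 FPKM with EGF and was at 63.1 ± 0.618 and 60.6 ± 1.597 FPKM in siNC and siEGFR (difference 0.79 ± 0.06). RRP12 and nucleolin (NCL) had differences of 0.90 ± 0.09 and 0.71 ± 0.07. Of 17 genes of the amino acid response 12 had a higher difference and DDIT3 a lower one (median 0.48). PSAT1, an enzyme of serine synthesis, rose with EGF and fell with siEGFR (difference 1.77 ± 0.11), while the transporters SLC7A5 and SLC3A2 rose in both arms and did not pass for the difference. WARS1, a tRNA synthetase, and the pseudokinase TRIB3 had differences of 0.81 ± 0.06 and 1.29 ± 0.10. Of 16 ER chaperones 7 had a higher difference and HERPUD1 a lower one (median 0.21). HSPA5, the main chaperone of the ER, rose by 0.20 with EGF and fell by 0.20 with siEGFR (difference 0.40 ± 0.05), and SDF2L1 had a difference of 0.91 ± 0.21.

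Further genes past the test stood out by size. TMEM158, a membrane protein induced by RAS, rose with EGF from 13.2 ± 2.99 to 75.01 ± 5.54 FPKM and was at 31.1 ± 1.28 in siNC and 27.9 ± 3.39 in siEGFR (difference 2.59 ± 0.19). PTX3, a soluble pattern recognition protein, had 6.57 ± 0.857 and 39.9 ± 1.94 FPKM in control and EGF and 12.7 ± 0.307 and 11.6 ± 0.901 in siNC and siEGFR (difference 2.56 ± 0.11). Neither passed in the knockdown. STC1, the secreted stanniocalcin, rose with EGF from 25.4 ± 1.82 to 105 ± 5.86 FPKM and fell from 26.3 ± 1.48 to 18.4 ± 0.276 FPKM with siEGFR (difference 2.50 ± 0.09). MYEOV went from 1.46 ± 0.176 to 5.34 ± 0.366 and from 11.7 ± 0.0298 to 5.55 ± 0.437 FPKM (difference 2.32 ± 0.10). TFPI2, a Kunitz-type protease inhibitor, rose from 10.9 ± 2.13 to 21.8 ± 3.33 FPKM and fell from 51.3 ± 3.14 to 24.3 ± 0.0913 FPKM (difference 1.99 ± 0.18). For MYEOV and TFPI2 the mean after knockdown still lay above the mean with EGF.

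The largest negative differences came from genes that EGF lowered. CCN5 (ENSG00000064205), a matricellular protein, was at 43.2, 61.8 and 50.3 FPKM in control, 8.96, 7.37 and 8.14 with EGF, 8.59, 9.38 and 8.67 in siNC and 10.03, 10.4 and 9.68 in siEGFR. Control stood far above the other groups, which lay within 7.37 to 10.4 FPKM. EGF lowered CCN5 by 2.52 ± 0.11, the siEGFR effect of 0.16 ± 0.11 did not pass (adjusted p = 0.484) although the siEGFR libraries did not overlap with siNC, and the difference was -2.68 ± 0.16 (adjusted p = 5.5e-07). MT1E, a metallothionein, fell with EGF from 169 ± 31.7 to 29.5 ± 1.14 FPKM and was at 122 ± 3.85 and 121 ± 8.07 in siNC and siEGFR (difference -2.45 ± 0.15). Reads of MT1E may belong to near-identical relatives. PDZK1, a scaffold of membrane transporters, fell with EGF and rose with siEGFR (difference -2.27 ± 0.14), as did the peptide receptor GLP2R (-2.13 ± 0.07). ZSCAN31, a zinc finger protein, fell with EGF only (-2.13 ± 0.10). PPL, the desmosomal plakin periplakin, fell in both arms, by 2.26 and 0.23, with a difference of -2.03 ± 0.08.

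Genes that EGF lowered and siEGFR raised included a matrix protein, a receptor kinase and a collagen. MATN2 (ENSG00000132561), the matrix protein matrilin-2, was at 11.7, 12.6 and 11.7 FPKM in control, 4.88, 4.43 and 4.73 with EGF, 5.605, 5.805 and 5.596 in siNC and 9.81, 10.4 and 10.2 in siEGFR. Control and siEGFR were the high groups. The effects were -1.19 ± 0.05 and 0.74 ± 0.05 and the difference -1.93 ± 0.07 (adjusted p = 2.53e-08). AXL (ENSG00000167601), a receptor tyrosine kinase of the TAM family, was at 11.9, 13.5 and 12.3 FPKM in control, 4.91, 5.07 and 4.74 with EGF, 17.1, 17.4 and 17.2 in siNC and 29.3, 28.6 and 29.6 in siEGFR. No groups overlapped in either arm, and siEGFR was the highest group. Its effects were -1.20 ± 0.05 and 0.73 ± 0.05 and its difference -1.92 ± 0.07 (adjusted p = 2.53e-08). CLIC3, an intracellular chloride channel protein, had a difference of -1.97 ± 0.18, and DIO2, which activates thyroid hormone, one of -1.57 ± 0.17.

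COL1A1, the alpha-1 chain of type I collagen, went from 6.802 ± 0.892 to 3.88 ± 0.273 FPKM with EGF and from 8.61 ± 0.179 to 14.4 ± 0.0784 FPKM with siEGFR (difference -1.35 ± 0.11). Its partner chain COL1A2 fell from 328 ± 6.67 to 195 ± 11.4 FPKM and rose from 131 ± 3.87 to 178 ± 1.14 FPKM (difference -1.19 ± 0.07). These 2 are the fibroblast markers that met the limits, and both are in the opposed class. The summed level of the 9 fibroblast markers was 337 to 352.8 FPKM over control libraries, 193.1 to 214.5 with EGF, 138.5 to 145.9 in siNC and 194 to 196.2 in siEGFR, while LUM, DCN, PDGFRA, COL3A1, THY1 and FAP were below 1 FPKM in all 12 libraries.

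**Figure D5:**
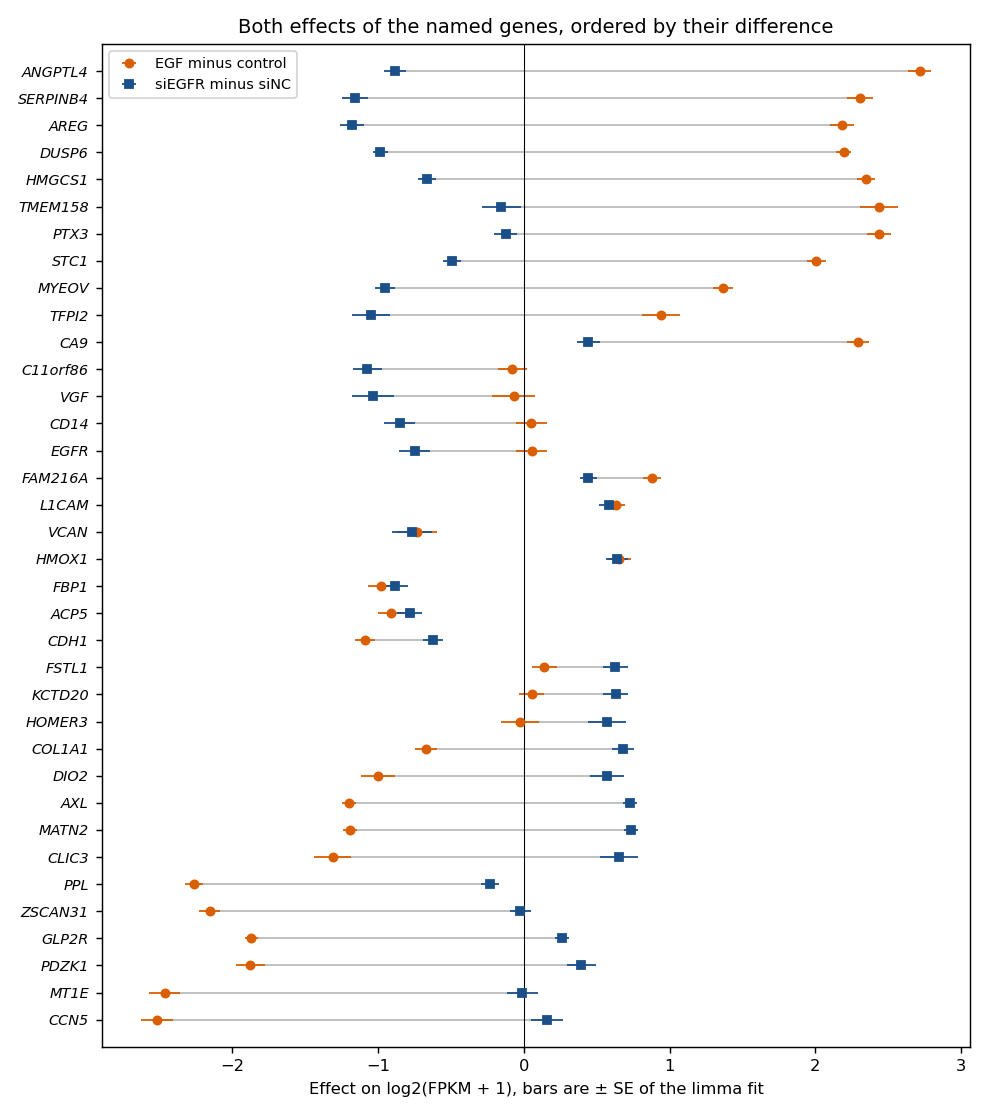
EGF effect (circles) and siEGFR effect (squares) on log2(FPKM + 1) with SE bars for named genes, ordered by the difference. The grey line between the symbols is the difference, from 3.60 for ANGPTL4 at the top to -2.68 for CCN5 at the bottom; for HMOX1, L1CAM and VCAN the symbols overlap.

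Targets of YAP and TEAD, which respond to adhesion and cytoskeletal tension, were mixed. Of 15 expressed, 4 had a higher and 7 a lower difference (median -0.33), beside 27.6% and 19% of all expressed genes. EGF raised 6 and lowered 5, and siEGFR raised 6 and lowered 1. AJUBA, a LIM protein of cell junctions, fell with EGF and rose with siEGFR like AXL (difference -1.26 ± 0.06). NT5E, the ectonucleotidase CD73, did the reverse, from 13.2 ± 1.42 to 41.9 ± 4.16 and from 44.2 ± 1.99 to 30.4 ± 0.213 FPKM (difference 2.12 ± 0.12). Of 14 contractile genes 2 had a higher and 4 a lower difference, and siEGFR raised 4. MYL9, a myosin light chain, fell from 20.9 ± 1.296 to 15.5 ± 0.966 FPKM with EGF and rose from 39.2 ± 1.06 to 70.7 ± 0.508 FPKM with siEGFR (difference -1.24 ± 0.08). The tropomyosins TPM1 and TPM2 had differences of -0.59 ± 0.08 and -0.63 ± 0.12.

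All 7 expressed epithelial genes fell with EGF. siEGFR lowered 3 (CDH1, EPCAM and SPINT2) and raised 0, with all siEGFR libraries below all siNC libraries in 6. For the difference 1 was higher and 3 lower. CDH1, which encodes E-cadherin, went from 5.69 ± 0.616 to 2.13 ± 0.177 and from 16.3 ± 0.518 to 10.3 ± 0.179 FPKM (difference -0.47 ± 0.10). EPCAM, an epithelial adhesion molecule, fell more in the knockdown (-0.78 ± 0.07) than with EGF (-0.34 ± 0.07), a difference of 0.44 ± 0.10. SPINT1, a protease inhibitor of epithelia, had a difference of -0.71 ± 0.10. In siNC CDH1 and EPCAM were above the control level, and siEGFR left both above the EGF level.

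Of 9 mesenchymal genes 3 had a higher and 3 a lower difference. ITGA5, the fibronectin receptor subunit, rose with EGF and fell with siEGFR (difference 1.38 ± 0.07), and SPARC, a matricellular protein, had a difference of -0.35 ± 0.06. Of 10 keratins and squamous serpins 3 were higher and 2 lower. SERPINB2, an inhibitor of urokinase, rose from 4.97 ± 0.361 to 13.7 ± 0.6104 FPKM with EGF and fell from 14.4 ± 0.595 to 7.66 ± 0.103 FPKM with siEGFR (difference 2.13 ± 0.08), and the basal keratin KRT15 fell in both arms (difference -0.83 ± 0.08). Of 7 matrix proteases and their inhibitors 6 were higher and TIMP2 lower. MMP14, a membrane metalloprotease, had a difference of 0.87 ± 0.06 and TIMP2 one of -1.07 ± 0.09. Of 3 alveolar genes LPCAT1, a surfactant lipid enzyme, was higher (0.29 ± 0.05), CAV1 lower (-0.23 ± 0.08), and ABCA3 did not pass (0.09 ± 0.08).

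Of the genes named for moving the same way in both arms, several had a difference whose interval included 0. HMOX1, the heme-degrading oxygenase, was at 8.69, 11.3 and 9.198 FPKM in control, 15.2, 15.6 and 16.8 with EGF, 57.9, 59.7 and 59.1 in siNC and 94.2, 89.97 and 92.7 in siEGFR. It rose in both arms, by 0.66 ± 0.08 and 0.64 ± 0.08, from means of 9.74 ± 1.402 FPKM in control and 58.9 ± 0.897 FPKM in siNC. The difference was 0.02 ± 0.11, with a 95% interval of -0.23 to 0.26 and adjusted p = 0.918. L1CAM, a neural adhesion molecule, rose by 0.63 ± 0.07 and 0.59 ± 0.07 (difference interval -0.16 to 0.25). FAM216A rose more with EGF than with siEGFR (difference 0.43 ± 0.09). FBP1, the fructose-1,6-bisphosphatase of gluconeogenesis, was at 7.82, 7.96 and 8.92 FPKM in control, 3.13, 3.76 and 4.19 with EGF, 8.601, 9.62 and 8.504 in siNC and 4.49, 4.51 and 4.11 in siEGFR. EGF lay below control and siEGFR below siNC without overlap, and the difference was -0.10 ± 0.12, with an interval of -0.37 to 0.17. ACP5, an acid phosphatase, and VCAN, the proteoglycan versican, also fell in both arms, with difference intervals of -0.40 to 0.15 and -0.39 to 0.46. These intervals leave room for differences of the sizes given and do not show that the effects are equal.

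In a last class siEGFR changed the gene and EGF did not pass. C11orf86 fell from 29.5 ± 1.24 to 13.5 ± 0.221 FPKM with siEGFR, and had 24.3 ± 4.1 in control and 22.8 ± 1.83 with EGF (difference 0.995 ± 0.138). VGF, the precursor of neuroendocrine peptides, was at 4.51, 8.14 and 5.88 FPKM in control, 5.19, 5.98 and 5.95 with EGF, 223, 216 and 207 in siNC and 114, 103 and 97.4 in siEGFR. It was low in both groups without siRNA and high in both with it, and fell with siEGFR by 1.04 ± 0.15 (difference 0.97 ± 0.21, adjusted p = 0.00338). CD14, a coreceptor for lipopolysaccharide and the only leukocyte marker that met the limits, was at 35.4 ± 4.95 and 36.5 ± 1.71 FPKM in control and EGF and fell from 6.99 ± 0.285 to 3.46 ± 0.576 FPKM with siEGFR (difference 0.90 ± 0.15). The summed level of the 9 leukocyte markers was 33.09 to 43.52 FPKM in control, 38.59 to 41.65 with EGF, 11.96 to 12.55 in siNC and 11.1 to 12.72 in siEGFR, while PTPRC, CD3D, CD3E, LYZ and CD68 were below 1 FPKM in all 12 libraries.

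In the other direction, KCTD20 rose from 8.24 ± 0.301 to 13.3 ± 0.0477 FPKM (difference -0.58 ± 0.12) and FSTL1, a secreted glycoprotein, from 16.3 ± 0.283 to 25.7 ± 0.5496 FPKM (difference -0.49 ± 0.12). HOMER3, a postsynaptic scaffold protein, rose from 7.06 ± 0.0468 to 11 ± 1.24 FPKM (difference -0.59 ± 0.18, adjusted p = 0.0232). For HOMER3 the adjusted p ran up to 0.0716 over 23 alternatives, and without control replicate 3, EGF replicate 1 or siEGFR replicate 1 it was 0.058, 0.0534 and 0.0582.

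Genes of the PI3K-FOXO axis mostly had negative differences. Of 10 expressed, 7 had a lower difference and IRS1 a higher one (median -0.38). EGF lowered 8 and raised IRS1, and siEGFR lowered IRS1 and raised 0. FBXO32, a ubiquitin ligase of muscle atrophy and a FOXO target, fell from 13.1 ± 0.109 to 4.11 ± 0.1698 FPKM with EGF and was at 8.52 ± 0.349 in siNC and 9.57 ± 0.4498 in siEGFR (difference -1.62 ± 0.07, adjusted p = 6.22e-08). CITED2, a transcriptional coregulator, had a difference of -0.77 ± 0.07. IRS1, an adaptor of the insulin receptor, rose with EGF from 4.42 ± 0.122 to 7.295 ± 0.559 FPKM and fell with siEGFR from 11.6 ± 0.359 to 9.49 ± 0.317 FPKM (difference 0.88 ± 0.08).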

How the data were processed

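Bulk RNA-seq of NCI-H1975 was analysed from a table in which the authors deposited FPKM for 61248 loci in 15 libraries. HISAT2, featureCounts, DESeq2 and the build hg19 are named per the submitters' processing notes, with no versions, and the strand setting is not given in the sources used here. No column was unmapped (0). Whole reads were recovered from the FPKM steps, and 100.0% of positive values came out whole within 0.01 reads.

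The 12 control, EGF, siNC and siEGFR libraries were fitted on log2(FPKM + 1), pseudocount 1, with limma 3.58.1 (intensity trend, robust moderation, 1 coefficient per group, 8 residual degrees of freedom) in R 4.3.3. Genes with at least 1 FPKM in 3 libraries were tested, two-sided, and p-values were adjusted by Benjamini-Hochberg over 14559 genes, threshold 0.05. The pseudocount understates changes of low genes. Intervals are 95% from the same fit. Steps were tested on simulated data. Other steps ran in pandas 2.3.3 and numpy 2.4.6 under Python 3.11.15, and plots in matplotlib 3.10.9.

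Symbols were matched for 60463 loci and gene types for 58337. Genes were named by rule: EGFR and the 5 markers; the 8 largest differences in each direction among genes past the threshold; for opposed genes 5 per direction and for jointly changed genes 4 per direction, by the smaller absolute effect; 3 per direction for genes changed by siEGFR and not EGF; and the 3 members of each list with the smallest p. Pseudogenes, clones and added loci were not named. Some items the rule would name are not reported here. FOSL1, COL1A2, KRT18 and other members outside the rule were named after their values were seen. Members and lists were chosen with earlier results of these data known. Promoters are from RefSeq on GRCh38.p14, 250 bases before the start, and no hg19 coordinates are given.

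Alternatives were another pseudocount, no filter, a higher expression limit, TPM and median-ratio scaling, all 15 libraries, 1 variance weight per group, no intensity trend, the replicate block, a stricter threshold, limma-voom on recovered reads, each arm alone and each library left out.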

Additional observations from a re-analysis of the deposited data

How the results depend on the processing

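Counts for the difference and for EGF moved less than those for siEGFR. The difference ran from 1621 to 2196 higher and 1080 to 1446 lower over the left-out libraries, and EGF counts from 2031 to 2655 and 1343 to 1683. For siEGFR, leaving out a library gave 80 (without siNC replicate 1) to 422 (without control replicate 1) higher and 160 (without siEGFR replicate 2) to 481 (without control replicate 1) lower genes. The classes ran from 81 to 227 (EGF up, siEGFR down), 37 to 179 (EGF down, siEGFR up), 22 to 149 (both up) and 44 to 147 (both down), each highest without control replicate 1. With no filter on low values siEGFR raised 119 genes, and 47 were EGF down and siEGFR up, 40 both up and 55 both down. With a mean of at least 10 FPKM, where fewer genes enter, 675 differences were lower, EGF lowered 804, siEGFR raised 144 and lowered 168, and the classes held 89 (EGF up, siEGFR down), 54 (EGF down, siEGFR up) and 48 (both down). All 15 libraries in the fit gave 49 both up. With 1 variance weight per group siEGFR raised 988 and lowered 901, and the classes held 325, 283, 318 and 217. At an adjusted p under 0.01 siEGFR raised 70 and lowered 152, and the classes held 76, 32, 18 and 37. Fitting the 6 siRNA libraries alone gave 994 and 916. With the replicate block, 2002 differences were higher and 1387 lower, and siEGFR raised 278 and lowered 348. Correlations of same-numbered deviations over all groups ran from -0.354 to 0.849. Between control and EGF they were 0.78, 0.849 and -0.25, while control 1 with EGF 3 reached 0.592. Between siNC and siEGFR they were 0.109, 0.1 and 0.0892. Whether the numbers pair the libraries was not tested. Median-ratio scaling gave 2007 and 1026 differences, and limma-voom on recovered reads 1851 and 1276. Of the named genes followed over the alternatives, only HOMER3 lost its call, in 6 of 23. Genes named only as members of a list were not followed. Among these is CAV1, whose difference had an adjusted p of 0.0379 in limma. With 3 libraries a group, small siRNA effects were limited by the spread of the control and EGF libraries.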

Other observations

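Of 12 expressed genes of MHC class I presentation, 0 were higher and 8 lower for the difference (median -0.37), EGF lowered 8 and raised 1, and siEGFR raised NLRC5, the transactivator of class I genes, and lowered 0. NLRC5 was at 15.7 ± 0.694 FPKM in control, 7.51 ± 0.373 with EGF, 4.15 ± 0.141 in siNC and 5.16 ± 0.158 in siEGFR (difference -1.23 ± 0.07, adjusted p = 5.42e-07 in limma). HLA-E and HLA-C had differences of -0.80 ± 0.07 and -0.56 ± 0.08, with reads that near-identical class I genes may share. In 0 of the 12 was the siNC mean above the control mean, a share that was not counted over all expressed genes. Of 13 interferon-stimulated genes 4 were higher (IFI44, IFIT3, IFIT2 and OASL) and 2 lower (STAT2 and BST2), with OASL, an oligoadenylate synthetase relative, at 1.26 ± 0.07. Of 8 NF-kB targets 5 were higher and TNFAIP2 lower, and ICAM1, an adhesion molecule for leukocytes, had a difference of 1.64 ± 0.08.

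Of 8 BCL2 family genes 6 were higher and 0 lower (median 0.54). EGF raised 6 and siEGFR lowered BCL2L2. BCL2L1, which encodes BCL-XL, had a difference of 1.32 ± 0.08, and BAK1, a pore-forming member, 0.66 ± 0.06. Of 6 p53 targets 4 were higher and XPC lower, among them the death receptor TNFRSF10B (0.87 ± 0.07) and the cell cycle inhibitor CDKN1A (1.14 ± 0.09). Of 21 lysosome and autophagy genes 6 were higher and 8 lower, beside 27.6% and 19% of all expressed genes. In this list siEGFR lowered 7 and raised 0, beside 4.43% and 3.4% of all expressed genes. GPNMB, a lysosomal glycoprotein, had a difference of -1.85 ± 0.09 and GLA, alpha-galactosidase, one of 0.75 ± 0.06. Of 10 TGF-beta and ID genes 2 were higher and 4 lower, with ID3 at -1.54 ± 0.09, and of 4 expressed members of the metallothionein list, which also holds the zinc exporter SLC30A1, MT1E and MT2A were lower (-2.45 and -0.997 ± 0.109). Ribosomal proteins had 0 higher and 1 lower of 28 (RPL10A) and mitochondrially encoded genes 0 higher and 1 lower of 12 (MT-CYB), with medians of -0.08 and -0.02. Of 6 expressed lung adenocarcinoma line markers 1 was higher and 1 lower, and of 7 endothelial markers 0 met the limits of expression.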
